A study of Homo sapiens with 4 samples.

Results

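The 10 genes DNMT1, DNMT3A, DNMT3B, UHRF1, HELLS, CDCA7, CDCA7L, TET1, TET2 and TET3, which write, maintain or oxidise DNA methylation, were followed in SAPCD2-knockdown neuroblastoma (NB) cells. They were chosen by name, as the DNA methyltransferases, UHRF1, the HELLS-CDCA7 remodeler and the TET enzymes, and were matched by GENCODE symbol to the Ensembl identifiers of the count table, where they are 10 of 64252 genes. RNA-seq had been carried out on SK-N-BE(2), a MYCN-amplified human NB cell line, with 2 libraries of cells carrying scramble shRNA (sh-Scb) and 2 libraries of cells carrying an shRNA against SAPCD2 (sh-SAPCD2). By the study's methods, stable knockdown cells were infected with lentivirus and selected with puromycin. That the control cells share the vector and the selection and differ in the shRNA is assumed, since the methods do not name the shRNA vector. The labels do not state that the 2 libraries of a group came from separate cultures, so the p-values measure the spread between these libraries, which may be technical. RNA levels were measured, and neither DNA methylation nor protein was.

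Libraries held 25347900 to 31850997 counts, and levels are given as CPM, counts divided by the library's effective size after TMM scaling. SAPCD2 itself, the targeted gene, was at 83.6 and 82.2 CPM in the sh-Scb libraries and at 35.4 and 52.5 CPM in the sh-SAPCD2 libraries, or 42.7% and 63.3% of the mean control level. Its log2 fold change was -0.91 (SE 0.193, adjusted p = 0.0206 by the quasi-likelihood test of edgeR with Benjamini-Hochberg adjustment over 18779 tested genes, which is the test behind each adjusted p where no other is named). Exons of SAPCD2 share 134 and 748 bp with the antisense genes ENSG00000229257 and ENSG00000231864, whose reads cannot be told apart from its own unless strand was counted. All 9 adrenergic NB markers were detected, among them HAND2 and GATA3, and their summed level was 2610 to 3490 CPM. Of 10 markers of immune, endothelial, mesenchymal, epithelial and glial cells, PECAM1 and COL1A2 were at or near 0, and the summed level, most of it PDGFRB, was 190 to 252 CPM. VWF and CD68 of that list were higher in sh-SAPCD2 libraries, yet reached 0.892 and 0.435 CPM at most.

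In vertebrate DNA, methyl groups sit mainly on cytosines of CpG pairs, and each round of replication leaves the new strand without them. UHRF1 binds such hemimethylated sites behind the fork and, by placing ubiquitin on histone H3 and on the PCNA partner PCLAF, brings in DNMT1, the maintenance methyltransferase. HELLS is a nucleosome remodeler that is activated by the zinc finger protein CDCA7 and opens packed chromatin to this machinery, and loss of either gives hypomethylation of satellite repeats in the immunodeficiency syndrome ICF. CDCA7L, also known as R1, is the paralog of CDCA7 and a partner of MYC. DNMT3A and DNMT3B add methyl groups to unmethylated sites, whereas TET1, TET2 and TET3 use oxoglutarate and iron to oxidise methylcytosine, the first step of active removal. Many genes of replication-coupled maintenance are driven by E2F factors at the G1 to S transition, which is why the E2F letters of their promoters are shown first.

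The sequences below are the 300-base promoter windows of 4 genes that were lower in SAPCD2-knockdown cells, from 250 bases before to 50 bases after a RefSeq transcription start (GRCh38.p14), read 5′ to 3′ on the strand of the gene. Capitals mark a match to the E2F letters TTTCCCGC or TTTGGCGC on either strand. CDCA7, UHRF1 and HELLS are shown because they were the members with a match, and DNMT1 because it was lower without one.
CDCA7 (chr2:173354622-173354921, plus strand): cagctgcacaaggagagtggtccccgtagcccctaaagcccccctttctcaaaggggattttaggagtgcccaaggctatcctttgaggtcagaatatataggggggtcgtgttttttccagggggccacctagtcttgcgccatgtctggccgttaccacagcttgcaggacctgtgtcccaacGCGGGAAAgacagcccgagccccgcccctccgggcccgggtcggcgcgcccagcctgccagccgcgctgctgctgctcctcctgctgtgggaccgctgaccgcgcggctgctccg
UHRF1 (chr19:4909251-4909550, plus strand): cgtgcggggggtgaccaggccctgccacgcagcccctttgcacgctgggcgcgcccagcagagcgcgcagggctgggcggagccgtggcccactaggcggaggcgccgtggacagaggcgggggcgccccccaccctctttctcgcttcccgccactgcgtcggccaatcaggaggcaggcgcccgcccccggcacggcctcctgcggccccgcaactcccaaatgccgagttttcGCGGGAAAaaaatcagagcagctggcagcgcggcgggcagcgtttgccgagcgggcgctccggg
HELLS (chr10:94545538-94545837, plus strand): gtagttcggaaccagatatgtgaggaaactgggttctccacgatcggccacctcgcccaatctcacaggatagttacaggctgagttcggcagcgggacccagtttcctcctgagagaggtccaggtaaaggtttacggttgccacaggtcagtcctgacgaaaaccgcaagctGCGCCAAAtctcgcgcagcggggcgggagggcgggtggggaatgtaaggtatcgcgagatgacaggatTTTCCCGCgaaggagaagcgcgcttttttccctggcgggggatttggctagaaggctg
DNMT1 (chr19:10194904-10195203, minus strand): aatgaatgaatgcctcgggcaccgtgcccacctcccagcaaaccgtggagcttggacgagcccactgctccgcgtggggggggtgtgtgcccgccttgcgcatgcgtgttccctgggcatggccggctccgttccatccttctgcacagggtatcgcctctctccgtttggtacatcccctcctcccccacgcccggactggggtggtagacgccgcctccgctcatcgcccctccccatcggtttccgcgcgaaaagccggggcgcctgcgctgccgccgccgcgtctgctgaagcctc
The match began 65 bases before the start in CDCA7 and 14 bases before it in UHRF1, both on the opposite strand. HELLS held a pair of matches, TTTGGCGC on the opposite strand from 76 bases before the start and TTTCCCGC on the strand of the gene from 8 bases before it, and these did not overlap. All 10 members had RefSeq windows, 21 in all, and 3 members held a match in 3 of the 21 windows. UHRF1 had it in 1 of its 3 windows. Over all promoters of the same length, 797 of 35116 windows (2.27%) and 750 of 27305 genes (2.75%) held one of the 2 motifs. The 3 members with a match were also the 3 with the largest decreases below, and whether the match bears on the decrease was not tested. The only window of DNMT3B (chr20:32779602-32779901, plus strand) lies inside the gene, which starts at 32762385. Letters upstream of that gene start were therefore not searched. A match is a description of letters, and no match says nothing on whether an E2F factor binds there.

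In SAPCD2-knockdown cells, levels of 6 of the 10 genes fell (adjusted p under 0.05): CDCA7, UHRF1, HELLS, CDCA7L, DNMT1 and DNMT3B. This compares with 12.5% of all genes tested. By the same test 0 members were higher, where the background was 12.4% (0 also at an unadjusted p under 0.05 and by DESeq2, which called 5 lower). With 1 library left out, 3 members were lower without sh-Scb replicate 1 and 3 without sh-Scb replicate 2, with 0 higher in both, whereas 9 were lower without sh-SAPCD2 replicate 1 and 7 without sh-SAPCD2 replicate 2, with 1 higher in each. All 10 genes had passed the filter on low counts. With the added demand of the study for an absolute log2 fold change over 1, 2 members were lower, CDCA7 and UHRF1, against 5.15% of genes tested, and 0 were higher, against 4.69%. In 8 members both sh-SAPCD2 libraries lay below both sh-Scb libraries (33.4% of genes tested), and in 1 member, DNMT3A, both lay above (33.5%). The median log2 fold change of the 10 members was -0.56, beside 0.02 for all genes tested, whose 5th and 95th percentiles were -1.25 and 1.17. In bulk RNA, fewer cells that express a gene and less of its RNA per cell cannot be told apart.

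**Figure D1:**
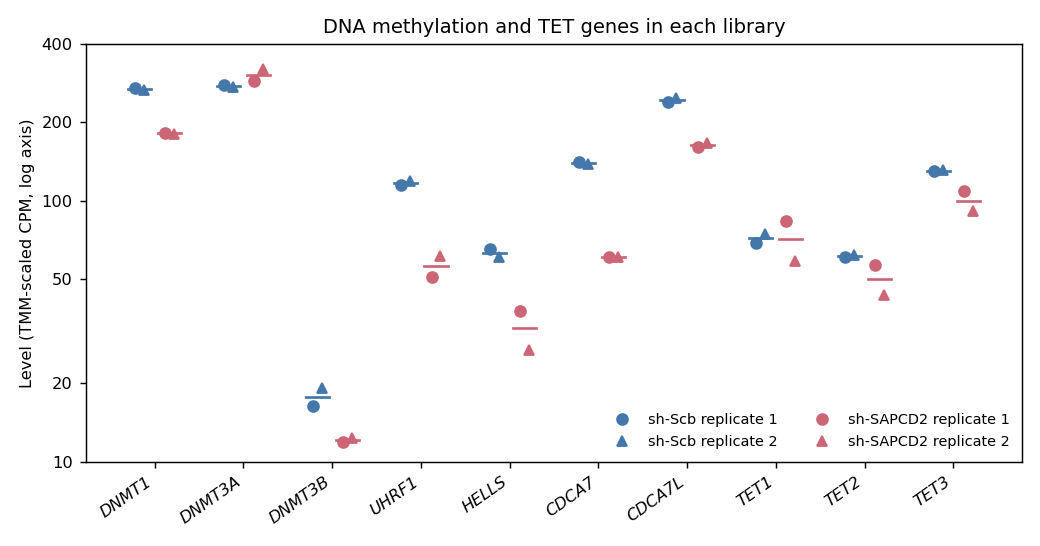
Level of each gene (CPM after TMM scaling, log axis) in the 2 sh-Scb libraries (blue) and the 2 sh-SAPCD2 libraries (red), with circles for replicate 1, triangles for replicate 2 and a bar at the group mean. Both red points lie below both blue points in 8 genes, above them in DNMT3A and on either side of them in TET1.

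UHRF1 (ENSG00000276043, hg38 chr19:4903080-4962154, plus strand), the reader of hemimethylated DNA, had a larger estimated decrease than the methyltransferase it recruits. Its levels were 115.6 and 118.9 CPM in sh-Scb libraries and 51 and 61.5 CPM in sh-SAPCD2 libraries. The groups were far apart, and the replicates of either group lay closer to each other than to the other group. The means were 117.2 ± 2.38 and 56.2 ± 7.42 CPM (SD, n = 2 each), and the log2 fold change was -1.06 (SE 0.127, 95% interval -1.37 to -0.75, adjusted p = 0.00463).

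DNMT1 (ENSG00000130816, hg38 chr19:10133342-10231286, minus strand), the maintenance methyltransferase, was at 271.6 and 266.9 CPM in control libraries and at 182.3 and 181.2 CPM in knockdown libraries. Replicates were almost equal, at 67.7% and 67.3% of the mean control level in the knockdown libraries, although these differed in SAPCD2 itself. Its means of 269.3 ± 3.35 and 181.8 ± 0.805 CPM gave a log2 fold change of -0.57 (SE 0.0921, 95% interval -0.79 to -0.34, adjusted p = 0.00993). The intervals of UHRF1 and DNMT1 overlapped slightly, and the difference between their changes was not tested. Exons of DNMT1 share 83 bp with S1PR2 on the same strand. Without either sh-Scb library the call of DNMT1 was lost at about the same size, at -0.56 (adjusted p = 0.181) without replicate 1 and -0.58 (adjusted p = 0.157) without replicate 2, where the lone control was assumed to vary like the knockdown libraries.

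The remodeler pair fell together. CDCA7 (ENSG00000144354, hg38 chr2:173354820-173368997, plus strand), the activator of HELLS, stood at 141.0 and 139.0 CPM in sh-Scb libraries and at 61.2 and 60.9 CPM in sh-SAPCD2 libraries. With 43.7% and 43.5% of the mean control level, it had the largest change of the 10 genes and the smallest SD among the knockdown libraries. The means were 140.0 ± 1.38 and 61.1 ± 0.197 CPM, with a log2 fold change of -1.20 (SE 0.099, 95% interval -1.44 to -0.96, adjusted p = 0.00248). CDCA7 and UHRF1 are among the predicted E2F7 targets that the study picked from these libraries for a heatmap, and DNMT1, HELLS, CDCA7 and UHRF1 are in its table of motif targets, so their direction is not independent evidence for those lists.

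HELLS (ENSG00000119969, hg38 chr10:94545329-94613905, plus strand), the remodeler itself, was at 65.7 and 60.7 CPM in control libraries and 38 and 26.9 CPM in knockdown libraries. The groups did not overlap, but the knockdown libraries stood further apart than for CDCA7, at 60.1% and 42.6% of the mean control level. Means of 63.2 ± 3.54 and 32.5 ± 7.85 CPM gave a log2 fold change of -0.96 (SE 0.183, 95% interval -1.41 to -0.52, adjusted p = 0.0153). The adjusted p was 0.0584 without a filter on low counts, when 34935 genes were tested. Its exons share 438 bp with ENSG00000244332 on the same strand.

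The paralog CDCA7L (ENSG00000164649, hg38 chr7:21900899-21945903, minus strand) had a smaller estimated decrease. It was at 238.7 and 248.3 CPM in sh-Scb libraries and 161.3 and 166.7 CPM in sh-SAPCD2 libraries, which left 66.2% and 68.5% of the mean control level. The means were 243.5 ± 6.73 and 164.0 ± 3.87 CPM, and the log2 fold change was -0.57 (SE 0.0946, 95% interval -0.80 to -0.34, adjusted p = 0.0104). The upper end of the interval of CDCA7, at -0.96, lay below the lower end of that of CDCA7L, though the difference itself was not tested. Leaving out sh-Scb replicate 1 gave -0.60 for CDCA7L and leaving out sh-Scb replicate 2 gave -0.54. The call was lost in both fits at about the same size, where the lone control was assumed to vary like the knockdown libraries. Exons of CDCA7L share 833 bp with DNAH11 on the opposite strand, and whether the counting used strand is not stated.

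The de novo methyltransferases took different courses. DNMT3B (ENSG00000088305, hg38 chr20:32762385-32809359, plus strand) was the least abundant of the 10 genes, with 16.3 and 19.2 CPM in sh-Scb libraries and 11.9 and 12.3 CPM in sh-SAPCD2 libraries, from 300 to 527 counts. The groups did not overlap, and the control pair was the wider one. Its log2 fold change was -0.55 (means 17.7 ± 2.02 and 12.1 ± 0.311 CPM, SE 0.157, 95% interval -0.93 to -0.17), and the adjusted p of 0.0484 was just under the threshold. The call was lost with DESeq2 (adjusted p = 0.0622), without a filter on low counts (adjusted p = 0.11), without sh-Scb replicate 1 (-0.67, adjusted p = 0.161) and without sh-Scb replicate 2 (-0.43, adjusted p = 0.446).

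DNMT3A (ENSG00000119772, hg38 chr2:25227855-25342590, minus strand) showed 277.6 and 274.6 CPM in control libraries and 288.1 and 320.7 CPM in knockdown libraries. Both knockdown values were the higher ones, at 104% and 116% of the mean control level, yet they lay further from each other than the nearer one did from the controls. The means of 276.1 ± 2.1 and 304.4 ± 23 CPM corresponded to a log2 fold change of 0.14 (SE 0.101, 95% interval -0.10 to 0.39, adjusted p = 0.346), so a fall like that of DNMT1 lay outside the interval. Without sh-SAPCD2 replicate 1 the value was 0.21 with an adjusted p of 0.00588, a call that rested on the remaining knockdown library and on the spread of the controls.

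**Figure D2:**
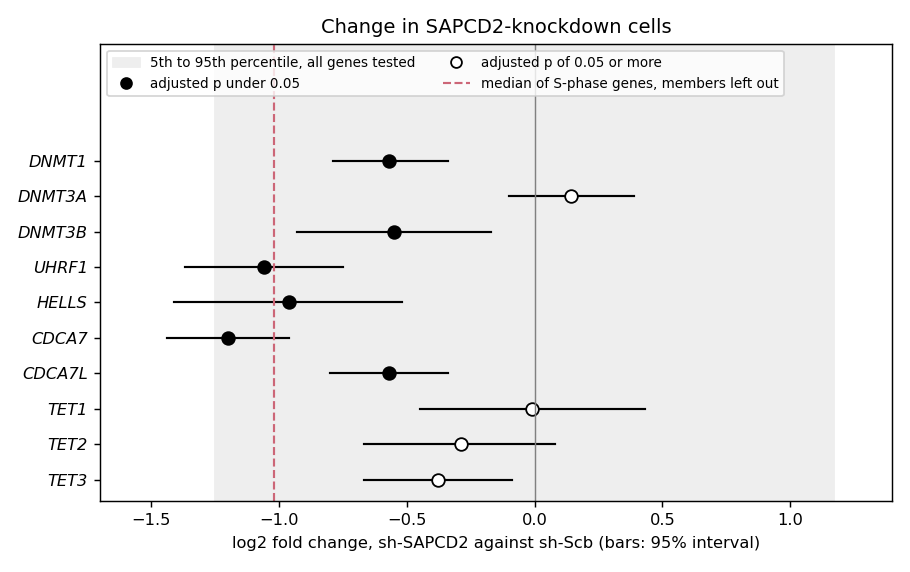
log2 fold change of each gene between sh-SAPCD2 and sh-Scb libraries, with the 95% interval as a bar, filled where the adjusted p was under 0.05. The grey band covers the 5th to 95th percentile of all genes tested (-1.25 to 1.17) and the dashed line is the median of 40 S-phase genes (-1.02). UHRF1, HELLS and CDCA7 sit at that line, DNMT1, DNMT3B and CDCA7L near -0.56, and DNMT3A and the TET genes between -0.38 and 0.14.

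None of the 3 TET genes passed the test in either direction by edgeR or DESeq2, with 1 of them, TET3, lower at an unadjusted p under 0.05. TET3 (ENSG00000187605, hg38 chr2:73984910-74108176, plus strand), which has a CXXC domain in its long isoform, was at 130.1 and 131.3 CPM in sh-Scb libraries and 108.9 and 91.5 CPM in sh-SAPCD2 libraries. Both knockdown values lay below both controls. The means were 130.7 ± 0.825 and 100.2 ± 12.3 CPM, and the log2 fold change of -0.38 (SE 0.119, 95% interval -0.67 to -0.09) had an adjusted p of 0.0629, which became 0.01 at -0.46 once each library was corrected for GC content and length. Exons of TET3 share 390 bp with ENSG00000235499 on the same strand.

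TET2 (ENSG00000168769, hg38 chr4:105145875-105279816, plus strand), the member without a CXXC domain of its own, had 61.2 and 62.1 CPM in control libraries and 57 and 43.7 CPM in knockdown libraries. The knockdown values were the lower ones but far apart, at 92.4% and 70.8% of the mean control level. With means of 61.7 ± 0.684 and 50.3 ± 9.39 CPM, the log2 fold change was -0.29 (SE 0.153, 95% interval -0.67 to 0.08, adjusted p = 0.208).

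TET1 (ENSG00000138336, hg38 chr10:68560337-68694487, plus strand) was the member whose groups overlapped, with 69.1 and 74.4 CPM in sh-Scb libraries against 83.9 and 58.7 CPM in sh-SAPCD2 libraries. One knockdown library lay above both controls and the other below. The log2 fold change of -0.01 (means 71.8 ± 3.74 and 71.3 ± 17.9 CPM, SE 0.182, 95% interval -0.45 to 0.43, adjusted p = 0.972) therefore averages opposite deviations, and it does not show that TET1 was equal in both groups.

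The TET values depended on which knockdown library was kept. Without sh-SAPCD2 replicate 1, TET1, TET2 and TET3 were at -0.30, -0.50 and -0.52 (adjusted p = 0.0237, 0.00341 and 0.000827). Without sh-SAPCD2 replicate 2, TET1, TET2 and TET3 were at 0.23, -0.11 and -0.26 (adjusted p = 0.046, 0.218 and 0.00703). Each of these fits compares 1 knockdown library with the close pair of controls and takes that pair's spread for both groups.

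The order of the members by depth of reads over their exons changed with the knockdown. In sh-Scb libraries the level per kb of merged exons was highest for CDCA7L, at 62.5 ± 1.73 CPM per kb, followed by CDCA7 at 29.8 ± 0.294, UHRF1 at 22.8 ± 0.462, DNMT3A at 20 ± 0.153 and DNMT1 at 17.5 ± 0.218. Below these came TET3 at 10.1 ± 0.0638, TET1 at 7.47 ± 0.389, HELLS at 4.44 ± 0.249, TET2 at 3.74 ± 0.0415 and DNMT3B at 2.58 ± 0.294 CPM per kb. No neighbours in this order overlapped. In sh-SAPCD2 libraries DNMT3A, at 22.1 ± 1.67 CPM per kb, stood second behind CDCA7L at 42.1 ± 0.993, with CDCA7 next at 13 ± 0.0419. DNMT1 at 11.8 ± 0.0523 and UHRF1 at 10.9 ± 1.44 overlapped, as did TET3 with TET1 and TET2 with HELLS. Merged exons count every annotated isoform, so that genes with many isoforms appear lower on this scale.

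Within the families, the make-up moved with the unequal changes. DNMT1 made up 44% and 43.3% of the summed level of the 3 methyltransferases (CPM per kb) in sh-Scb libraries and 34.4% and 32% in sh-SAPCD2 libraries. DNMT3A made up 50.1% and 49.7% in controls and 60.6% and 63.2% in knockdown libraries, whereas DNMT3B stayed a minor part, at 5.9% and 6.95% against 5% and 4.85%. Thus the ratio of maintenance to de novo transcripts was lower in both knockdown libraries than in both controls. CDCA7 made up 32.9% and 31.7% of the CDCA7 and CDCA7L sum in controls and 23.9% and 23.3% in knockdown libraries, and that sum was 91.3 and 93.4 against 54.4 and 55.8 CPM per kb. The TET shares moved less, with TET1 at 34.3% and 35.7% against 42.4% and 38.6%. These shares are descriptions without a test, and a share can rise because another gene of the family fell.

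**Figure D3:**
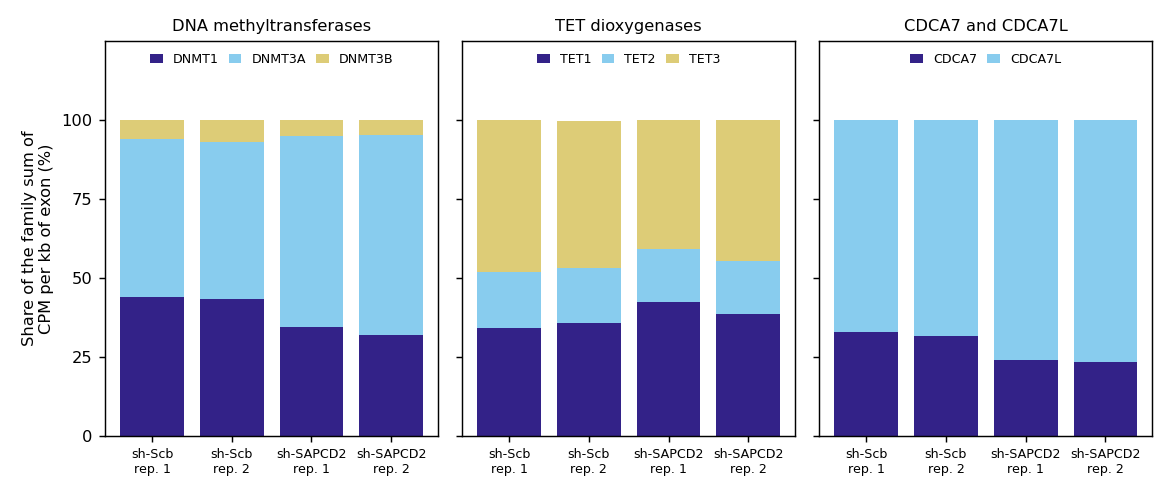
Share (%) of each gene in the summed CPM per kb of exon of its family, 1 bar per library, for the DNA methyltransferases, the TET dioxygenases and the CDCA7 pair. In both sh-SAPCD2 bars the share of DNMT1 is smaller (34.4% and 32%, against 44% and 43.3%) and that of DNMT3A larger, and the share of CDCA7 is smaller (23.9% and 23.3%, against 32.9% and 31.7%).

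The S-phase programme fell alongside the maintenance genes. In the S-phase list distributed with Seurat, which holds UHRF1, HELLS and CDCA7, 34 of the 40 other genes were lower and 0 higher, with a median log2 fold change of -1.02 (1 was higher at an unadjusted p under 0.05, and 0 by DESeq2). The summed level of these 40 genes was 4.32e+03 and 4.34e+03 CPM in sh-Scb libraries and 2.39e+03 and 2.26e+03 CPM in sh-SAPCD2 libraries. The intervals of UHRF1, HELLS and CDCA7 included that median, and those of DNMT1, DNMT3B and CDCA7L did not. How far a smaller part of cells in S phase accounts for the members' levels was not tested.

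The sh-SAPCD2 libraries differed from each other more than the controls did. Replicate 1 had the lower SAPCD2 level, and of the members UHRF1, DNMT3A, DNMT3B and CDCA7L were also lower in it. HELLS, TET1, TET2 and TET3 were lower in replicate 2, by 34.2%, 35.5%, 26.4% and 17.3% of the group mean, where SAPCD2 was at the higher level. DNMT1 and CDCA7 differed by 0.626% and 0.456% between these libraries. Exons of HELLS, TET1, TET2 and TET3 held 37.9%, 42.1%, 40.9% and 52.9% GC. Those of UHRF1, DNMT3A, DNMT3B and CDCA7L held 55.8%, 54.1%, 53.7% and 46.0%, and those of SAPCD2 66.5%. DNMT1 and CDCA7 held 54.0% and 40.8%. After correction for GC content and length, the SE was smaller, at 0.0655 from 0.127 for UHRF1 and 0.0981 from 0.183 for HELLS. With 2 libraries, no relation between the SAPCD2 level and the members can be tested. Whether GC content bears on these gaps was not tested.

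The shRNA was read from the study's methods as sh-SAPCD2 #1, the one its heatmap of these libraries names, since the labels do not say which of 2 shRNAs was used. Its guide strand is shown, with the seed (bases 2 to 8) in capitals, because a seed match in the 3′ UTR of a member could make it a direct target of the shRNA.
sh-SAPCD2 #1, guide strand: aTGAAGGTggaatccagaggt
Its 21-base target lies in the coding sequence of SAPCD2 (hg38 chr9:137064663-137064683, minus strand). The seed site ACCTTCA occurred in the 3′ UTR of 1 member, TET3, against 12.5% of 13598 tested genes with an annotated 3′ UTR. Words for shifted starts of the shRNA strands had been singled out after values of these data were seen, namely TCCACCT for the guide strand, AGAGGTC for the passenger strand, and the forms with a following A, which are CCACCTA for the guide strand and GAGGTCA for the passenger strand. At least 1 of them occurred in 3 members, DNMT3A, CDCA7 and TET1, against 33.9% of those genes. UHRF1, HELLS, CDCA7L, DNMT1 and DNMT3B, all lower, had none of these words, whereas CDCA7, also lower, held TCCACCT. Only the 3′ UTR of the canonical transcript of each gene was searched. Whether the shRNA acts directly on any member was not tested.

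Around the 10 members, 7 lists of genes from the same pathways held 113 genes, of which 82 were tested. Of these, 12 (14.6%) were lower and 13 (15.9%) higher, shares near the backgrounds of 12.5% and 12.4%. Leaving out single libraries moved these counts between 9 and 23 lower and 7 and 23 higher, with the fewest calls without either sh-Scb library and the most without either sh-SAPCD2 library. The lists did not move alike.

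Partners of maintenance and de novo methylation (13 of 15 tested) held 4 lower genes and 0 higher ones, with a median log2 fold change of -0.27 (0 higher also at an unadjusted p under 0.05 and by DESeq2). PCLAF, which carries the ubiquitin marks that DNMT1 binds, went from 108.1 ± 1.19 to 35.9 ± 0.14 CPM (-1.59, adjusted p = 0.00201). LIG1, the ligase of lagging strand fragments and a UHRF1 partner, went from 33.7 ± 1.62 to 10.5 ± 1.64 CPM (-1.68, adjusted p = 0.00321). PCNA, the sliding clamp on which both sit and also 1 of the 40 S-phase genes above, had a log2 fold change of -1.14 (adjusted p = 0.00243). SETDB1, a histone H3 lysine 9 methyltransferase, was at -0.48 (adjusted p = 0.0255). UHRF2, the paralog of UHRF1, had -0.29 (adjusted p = 0.167), and the deubiquitinase USP7 had 0.04 (adjusted p = 0.825).

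In the supply of methyl groups (12 of 14 tested), 3 genes were lower and 1 higher, with a median of -0.23. SHMT1, a cytosolic enzyme that loads one-carbon units onto folate, went from 22 ± 0.677 to 8.12 ± 0.985 CPM (-1.43, adjusted p = 0.00406). MTR, the methionine synthase, was at -0.73 (adjusted p = 0.00759). The other 2 that passed were AHCYL1 at -0.86 (adjusted p = 0.00406) and AHCYL2 at 0.81 (adjusted p = 0.0194). They are relatives of the S-adenosylhomocysteine hydrolase AHCY and are known for binding inositol trisphosphate receptors and ion transporters. MAT2A, which makes S-adenosylmethionine, the methyl donor, was at 682.7, 677.0, 699.0 and 692.1 CPM in the 4 libraries (0.03, adjusted p = 0.812).

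Of 8 methyl-CpG readers, all tested, 1 was lower and is not reported here by name. By the same test 0 were higher (1 at an unadjusted p under 0.05 and 1 by DESeq2), and the median log2 fold change of the 8 was 0.10. The zinc finger readers ZBTB38, ZBTB33 and ZBTB4 had log2 fold changes of 0.40, 0.37 and 0.37 and did not pass (adjusted p = 0.075, 0.134 and 0.145).

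On the side of removal, TET partners and enzymes of oxoglutarate supply (11 of 11 tested) held 0 lower genes and 1 higher gene, with a median of -0.02 (0 lower also at an unadjusted p under 0.05 and by DESeq2). This was IDH1, the cytosolic isocitrate dehydrogenase that makes oxoglutarate, at 72.9 ± 2.54 and 104.1 ± 10 CPM (0.51, adjusted p = 0.025). In the removal of oxidised methylcytosine (11 of 12 tested), 4 genes were higher and 1 lower, with a median of 0.40. GADD45A and GADD45G, stress genes better known for growth arrest, were at 1.07 and 1.65 (adjusted p = 0.018 and 0.031), GADD45G from a low level of 1.81 ± 0.415 CPM. The repair glycosylase NEIL2 was at 0.74 (adjusted p = 0.0194) and the repair polymerase POLB at 0.52 (adjusted p = 0.0422). SMUG1, a glycosylase for uracil and its oxidised forms, was lower, at -0.92 (adjusted p = 0.0195). TDG, the glycosylase that cuts out the products of TET enzymes, had -0.41 and did not pass (adjusted p = 0.0832).

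**Figure D4:**
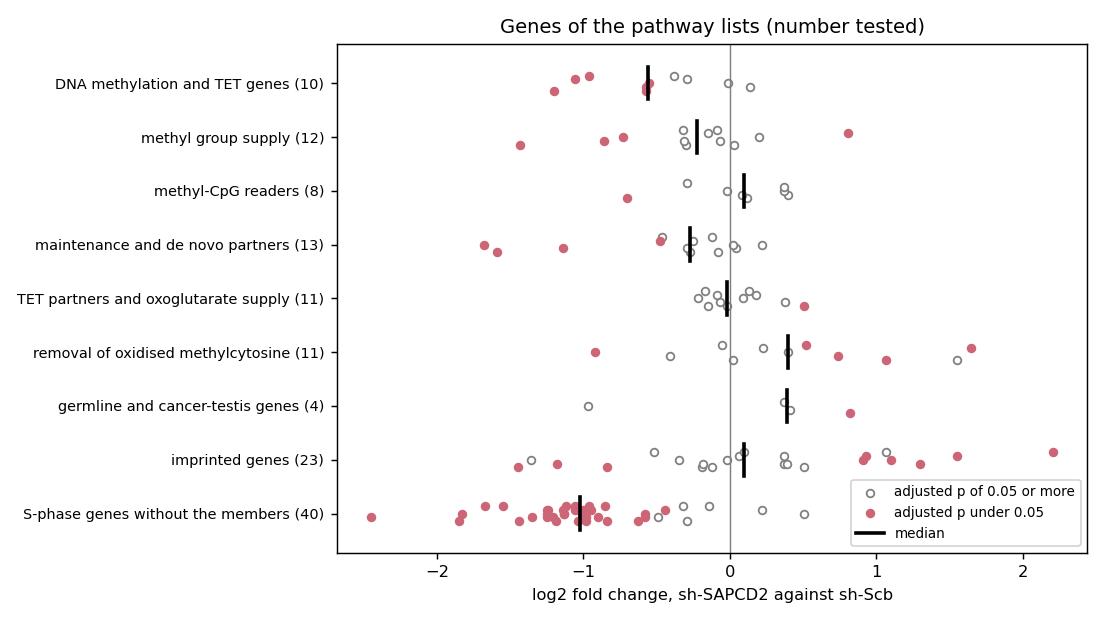
log2 fold change between sh-SAPCD2 and sh-Scb libraries of each tested gene of the members, of 7 pathway lists and of 40 S-phase genes, with red points for an adjusted p under 0.05, open points for the rest and a bar at the median. The S-phase genes lie almost wholly below 0 (median -1.02), the members between -1.20 and 0.14, and the genes that remove oxidised methylcytosine mostly above 0 (median 0.40).

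Genes that are commonly kept silent by promoter methylation were mostly at or near the limit of detection. Of 28 germline and cancer-testis genes, 20 had no count in any library and 4 were tested, of which 1 was higher and 0 were lower (0 also at an unadjusted p under 0.05 and by DESeq2). A count of 0 allows up to 3 counts, which is 0.0955 to 0.119 CPM in these libraries, for counting error only. How reads that match several places in the genome were counted is not stated, so a count of 0 does not show that a gene was silent. PRAME, a cancer-testis antigen, was at 26.1 and 26.6 CPM in sh-Scb libraries and 49.5 and 43.4 CPM in sh-SAPCD2 libraries (0.82, adjusted p = 0.00941). TDRD1, a factor of the germline small RNA pathway, was at 60.2 and 55.5 CPM against 85.9 and 68.2 CPM and did not pass (0.41, adjusted p = 0.0856), nor did SYCP3 (-0.97, adjusted p = 0.262) and PIWIL2 (0.37, adjusted p = 0.569).

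Imprinted genes, whose parental alleles differ in methylation, moved both ways. Of 25 listed genes 23 were tested, 3 were lower and 6 higher, with a median log2 fold change of 0.10. SNRPN was at -1.45 (adjusted p = 0.00322) and NNAT, a gene of neuronal differentiation, at -1.18 (adjusted p = 0.004). BLCAP, whose intron holds NNAT, went the other way, at 0.91 (adjusted p = 0.00581), as did the growth factor IGF2, at 0.93 (adjusted p = 0.00616). Counts do not separate the parental alleles, so that these values say nothing on imprinting itself.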

How the data were processed

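RNA-seq was carried out by the authors on 2 sh-Scb and 2 sh-SAPCD2 libraries of SK-N-BE(2) cells. The deposited values are whole-number counts per gene, made by the authors from alignments to hg38 with HISAT2 2.2.0 (submitters' processing notes) and unscaled for depth. Abundances were estimated by the authors with StringTie. The step that gave whole counts, its settings and the strandedness are not given in the sources used here. Counts were scaled by TMM and tested in R 4.3.3 with the two-sided quasi-likelihood test of edgeR 4.0.16, group only, after filterByExpr (minimum count 10, minimum total 15), with Benjamini-Hochberg adjustment over 18779 genes. The biological coefficient of variation was 15.4%. Intervals are 95%. Positions and exon lengths came from GENCODE 44, which matched 17467 tested genes (93%), promoters from RefSeq, and the S-phase list from Seurat 5.3.0. Alternatives were DESeq2 1.42.0, other scalings and filters, a loess correction for GC content and length (span 0.3), a replicate block and each library left out. The members and lists were chosen with earlier results of these data known. Named were all members, SAPCD2, the 4 genes of each list with the smallest p at most, and any gene behind a count of 5 or fewer, and further genes are named as values without a call or as chosen after their values were seen. Differences between replicates exceeded counting noise, with a mean chi-square per gene of 4.39 for the sh-Scb pair and 38 for the sh-SAPCD2 pair. Some genes of the lists are not reported here by name. Scripts were tested on simulated data.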

Additional observations from a re-analysis of the deposited data

How the results depend on the processing

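Over the 8 alternatives that used all 4 libraries, 72 of 80 values of the members kept their direction and side of the threshold. The log2 fold changes that did not were DNMT3B with DESeq2 (-0.54, adjusted p = 0.0622) and without a filter on low counts (-0.55, adjusted p = 0.11), HELLS without that filter (-0.96, adjusted p = 0.0584), and TET3, which passed after the correction for GC content and length (-0.46, adjusted p = 0.01) and with that correction and the replicate block together (-0.46, adjusted p = 0.00722). TET1, near 0 throughout, changed sign with DESeq2 (0.00, adjusted p = 0.99), after correction for length and GC content (0.06, adjusted p = 0.708) and with that and the block (0.05, adjusted p = 0.754). Over all such fits the adjusted p ran from 0.00695 to 0.11 for DNMT3B, from 1.45e-05 to 0.0584 for HELLS, from 0.00722 to 0.145 for TET3 and from 0.708 to 1 for TET1. Of the pathway genes, 4 were higher without the filter (against 10 lower), and 20 were lower after that correction, or 21 with the block too. TTTGGCGC alone matched 1 member.

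Same-numbered libraries are not said to share a culture, and their deviations from the group means correlated at -0.0188 over the 2 pairs. The replicate block left 6 members lower, with CDCA7 at -1.20, and changed no member's call.

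With 1 library left out, CDCA7 ranged from -1.21 to -1.19, CDCA7L from -0.60 to -0.54, DNMT1 from -0.58 to -0.56, DNMT3A from 0.06 to 0.21, DNMT3B from -0.67 to -0.43, HELLS from -1.24 to -0.73, TET1 from -0.30 to 0.23, TET2 from -0.50 to -0.11, TET3 from -0.52 to -0.26 and UHRF1 from -1.20 to -0.94. TET1 reversed without sh-Scb replicate 2 (0.04) and without sh-SAPCD2 replicate 2 (0.23). Lower members numbered 3 to 9 and higher ones 0 to 1, with 3 lower without either control library, and those past the log2 threshold numbered 2 to 3 and 0 to 0. Pathway genes ranged from 9 to 23 lower and from 7 to 23 higher. Fewer libraries or other numbers of genes tested are part of some of these fits, and for the rest the cause was not tested. With 2 libraries a group, small changes such as that of DNMT3A were not detectable at this precision.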

Other observations

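The imprinted cluster at the end of the short arm of chromosome 11 held 7 of the 25 listed imprinted genes, all tested, in hg38 chr11:1995166-2929420, and was singled out after its values were seen. Of the 7, 4 were higher in sh-SAPCD2 libraries, beside 12.4% of all genes tested, and 0 were lower, beside 12.5%. A log2 fold change over 0 was seen in 6 of them, where the median of all genes tested was 0.02. H19, a long noncoding RNA, was at 1073.1 and 1072.9 CPM in sh-Scb libraries and at 1982.3 and 3317.3 CPM in sh-SAPCD2 libraries (1.30, SE 0.23, adjusted p = 0.0123 by edgeR). CDKN1C, the CDK inhibitor p57, was at 5.47 and 5.09 CPM against 7.9 and 14.7 CPM (1.10, adjusted p = 0.0475). PHLDA2, a growth-restraining gene of the placenta, was at 0.905 and 1.09 CPM against 3.71 and 5.54 CPM (2.21, adjusted p = 0.00689). The fourth was IGF2, and SLC22A18 (1.07, adjusted p = 0.0676), KCNQ1OT1 (0.37, adjusted p = 0.255) and KCNQ1 (-0.52, adjusted p = 0.359) did not pass. Elsewhere, and also named after their values were seen, PEG10 was at -0.84 (adjusted p = 0.00697) and MAGEL2 at 1.55 (adjusted p = 0.0483), the latter from 9 to 46 counts a library.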
